A study of Mus musculus with 60 samples.

Results

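The genes described here are 42 mouse genes whose products carry out mitosis, the step in which a dividing cell condenses its chromosomes, attaches them to a spindle of microtubules, pulls them apart and splits into daughter cells. They were taken from a named list, and 42 of 42 were found among the 22869 gene symbols of the count table. For each gene the transcript row that the authors marked was used, or the row with most counts for the 6 members without a mark. The members fall into 7 groups by role: 8 entry kinases and cyclins with their partners, 4 subunits of the chromosomal passenger complex, 4 genes of the spindle checkpoint and of anaphase onset, 5 kinetochore genes, 10 spindle motors and microtubule factors, 6 genes of the central spindle and cytokinesis, and 5 genes of chromosome structure.

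In a dividing cell the cyclin-dependent kinase Cdk1, bound to cyclin A or B, starts mitosis, and the anaphase-promoting complex (APC/C) with Cdc20 ends it by marking cyclin B and securin for destruction. Most of these genes are transcribed late in the cell cycle, in G2 and mitosis, under the MuvB complex with B-Myb and FoxM1, and are silent in resting cells, so their summed RNA is widely read as a mark of dividing cells. Microglia, the resident macrophages of the brain, seed the brain before birth, divide there during late embryonic and early postnatal life, and renew slowly in the adult.

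The libraries hold polyadenylated RNA of microglia from C57BL/6N mice, 60 in all. They were untreated at embryonic day 18 (E18, 3 female and 4 male by title), postnatal day 4 (P4, 4 and 4) and P14 (10 and 10), and at P60 mice had received saline (7 and 5) or lipopolysaccharide (LPS, a component of bacterial outer membranes that innate immune cells sense, 6 and 7). The sources used here do not give the dose, route or time of LPS, or how cells were isolated. The labels do not say that libraries came from separate animals, so p-values measure the spread between these libraries, which may be technical.

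Total counts per library ran from 802016 to 3497454, and the 42 genes together took 155 to 903 counts in a P60 saline library against 5986 to 13877 at P4. Levels are CPM, the share of a gene in its library's counts multiplied by 1000000, and changes are log2 fold changes ± standard error from edgeR's quasi-likelihood test, called at a Benjamini-Hochberg adjusted p of at most 0.05 over all genes tested. Stage, and treatment at P60, never share a date in the labels, so the effect of stage or of LPS cannot be told apart from that of the date. Title and sex label disagreed for 10 libraries, where the title was used, and the sex-linked transcripts of the library labelled M_E18 4 went against its title. Summed microglial markers (10 of 10 genes found) rose from 2294 to 5204 CPM at E18 to 22450 to 46410 CPM at P60 with saline. Markers of other cells were present too: neuronal markers (9 genes) summed to 640 to 3087 CPM at E18 and 7.26 to 28.1 CPM at P60 with saline, and choroid plexus and ependymal markers (7 genes) reached 251300 CPM at E18 in M_E18 4.

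Because these genes moved together between stages, their promoters were searched for the 2 letter strings best known from late cell cycle genes. TTTGAA is the core of the cell cycle genes homology region, which the MuvB complex reads, and CCAAT is bound by the factor NF-Y. In the RefSeq promoter table (GRCm38.p6, 250 bases before to 50 after each start, both strands, and matches may share an end base), 37 of 42 members were matched. Aurkb, Ccna2, Incenp, Kif20a and Tpx2 were not. TTTGAA was found for 30 of the 37 members and in 82.1% of their promoters, against 17.9% of all 32851 promoters. CCAAT was found for 29 members and in 79.5% of their promoters, against 37.4% of all. Both strings were found for 26 members and in 71.8% of their promoters, against 6.95% of all. The variant TTCGAA was found for 3 members. The stretches of 5 members just upstream of the start are shown as examples from different roles, and that of Birc5 as one of the 7 members without TTTGAA in this window, with matches to these 3 strings, or their reverse complements, in capitals. The Birc5 stretch holds none of them. A match describes the letters in this window, not a bound site.
Cdk1, chr10:69352913-69353062, minus strand: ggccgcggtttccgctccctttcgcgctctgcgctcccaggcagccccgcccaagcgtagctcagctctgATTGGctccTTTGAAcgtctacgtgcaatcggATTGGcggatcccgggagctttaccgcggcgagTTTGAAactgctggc
Cdc20, chr4:118437344-118437493, minus strand: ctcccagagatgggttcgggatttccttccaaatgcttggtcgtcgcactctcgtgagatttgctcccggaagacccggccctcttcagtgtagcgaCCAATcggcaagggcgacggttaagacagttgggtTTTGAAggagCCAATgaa
Mki67, chr7:135716380-135716579, minus strand: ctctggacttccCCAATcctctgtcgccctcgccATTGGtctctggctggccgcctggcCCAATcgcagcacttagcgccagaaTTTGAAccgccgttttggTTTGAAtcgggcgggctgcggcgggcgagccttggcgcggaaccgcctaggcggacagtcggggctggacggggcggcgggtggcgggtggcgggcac
Top2a, chr11:99024190-99024389, minus strand: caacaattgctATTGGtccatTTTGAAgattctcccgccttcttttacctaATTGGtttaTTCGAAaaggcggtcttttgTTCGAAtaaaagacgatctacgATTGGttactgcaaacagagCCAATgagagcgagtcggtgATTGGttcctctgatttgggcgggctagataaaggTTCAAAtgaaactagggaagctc
Ckap2l, chr2:129297213-129297362, minus strand: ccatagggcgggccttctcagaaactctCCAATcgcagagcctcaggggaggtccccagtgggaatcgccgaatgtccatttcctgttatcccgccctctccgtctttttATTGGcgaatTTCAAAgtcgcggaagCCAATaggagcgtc
Birc5, chr11:117849087-117849236, plus strand: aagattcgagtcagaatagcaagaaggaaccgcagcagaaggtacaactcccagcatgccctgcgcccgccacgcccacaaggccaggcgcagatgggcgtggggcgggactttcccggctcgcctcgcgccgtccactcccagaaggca

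The summed level of the 42 genes peaked at P4 and was lowest at P60. It was 1022, 2299 and 3000 CPM at E18 (lowest, median and highest of 7 libraries), and 3107, 4006 and 4514 CPM at P4 (8 libraries). At P14 it was 545, 954 and 1376 CPM (20 libraries). At P60 it was 159, 235 and 353 CPM with saline (12 libraries) and 211, 242 and 407 CPM with LPS (13 libraries). Each P4 library was thus above each E18 library and each P14 library. The P14 libraries overlapped the lowest of E18, each saline library at P60 lay below the P14 libraries, and saline and LPS libraries overlapped. The median at P4 was 1.74 times that at E18, 4.2 times that at P14 and 17.1 times that at P60 with saline. In bulk RNA, fewer dividing cells and less mitotic RNA per cell cannot be told apart.

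**Figure D1:**
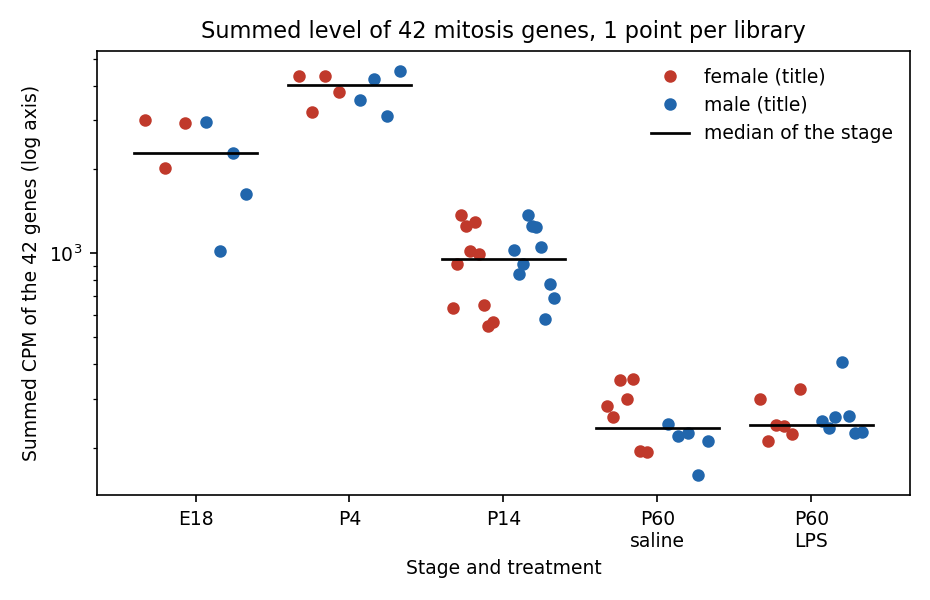
Summed CPM of the 42 mitosis genes (vertical log axis) by stage and treatment (horizontal axis), with 1 point per library coloured by sex in the title and a black line at the stage median. The P4 libraries sit between 3107 and 4514 CPM, above all others, and the saline and LPS libraries at P60 overlap.

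From E18 to P4, 28 of 42 members rose, none fell and 14 did not pass the test (edgeR), where 25.5% of all genes tested rose. Without the 2 E18 libraries of 11 April, 18 rose. The median log2 fold change of the members was 0.78, against 0.03 for all genes tested, and single values ran from -0.16 (Cdca3) to 1.83 (Mki67). The P4 and E18 libraries did not overlap for 8 members, all higher at P4, namely Incenp, Ndc80, Kif11, Ckap2, Ckap2l, Kif23, Anln and Mki67. This was so for 7.38% of all genes.

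From P4 to P14 all 42 fell, where 20.8% of all genes did, with a median of -1.81 and a range of -2.11 (Aurka) to -1.35 (Ckap2l). For 41 members, each but the checkpoint kinase Ttk, the lowest P4 library was above the highest P14 library, which held for 4.55% of genes. From P14 to P60 with saline all 42 fell again, where 25.7% of genes did, with a median of -2.13 and a range of -2.94 (Ckap2) to -0.63 (Kif20a). The P14 libraries were all above the saline libraries for 13 members (Cdca3, Bub1b, Kif11, Kif4, Tpx2, Ckap2, Kif23, Prc1, Anln, Top2a, Mki67, Ncapg and Ncapd2), against 1.81% of genes. Successive steps share the libraries of the stage between them.

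Over the whole course, P60 with saline was lower than E18 for 42 of 42 members, with a median of -3.13, where 34.8% of genes fell. The libraries of these 2 stages did not overlap for 22 members, against 13.4% of genes, and those of P4 and P60 with saline did not overlap for any member, against 14.2% of genes. At the medians, P60 levels were 2.23% (Ccnb2) to 14.95% (Smc2) of the P4 levels.

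**Figure D2:**
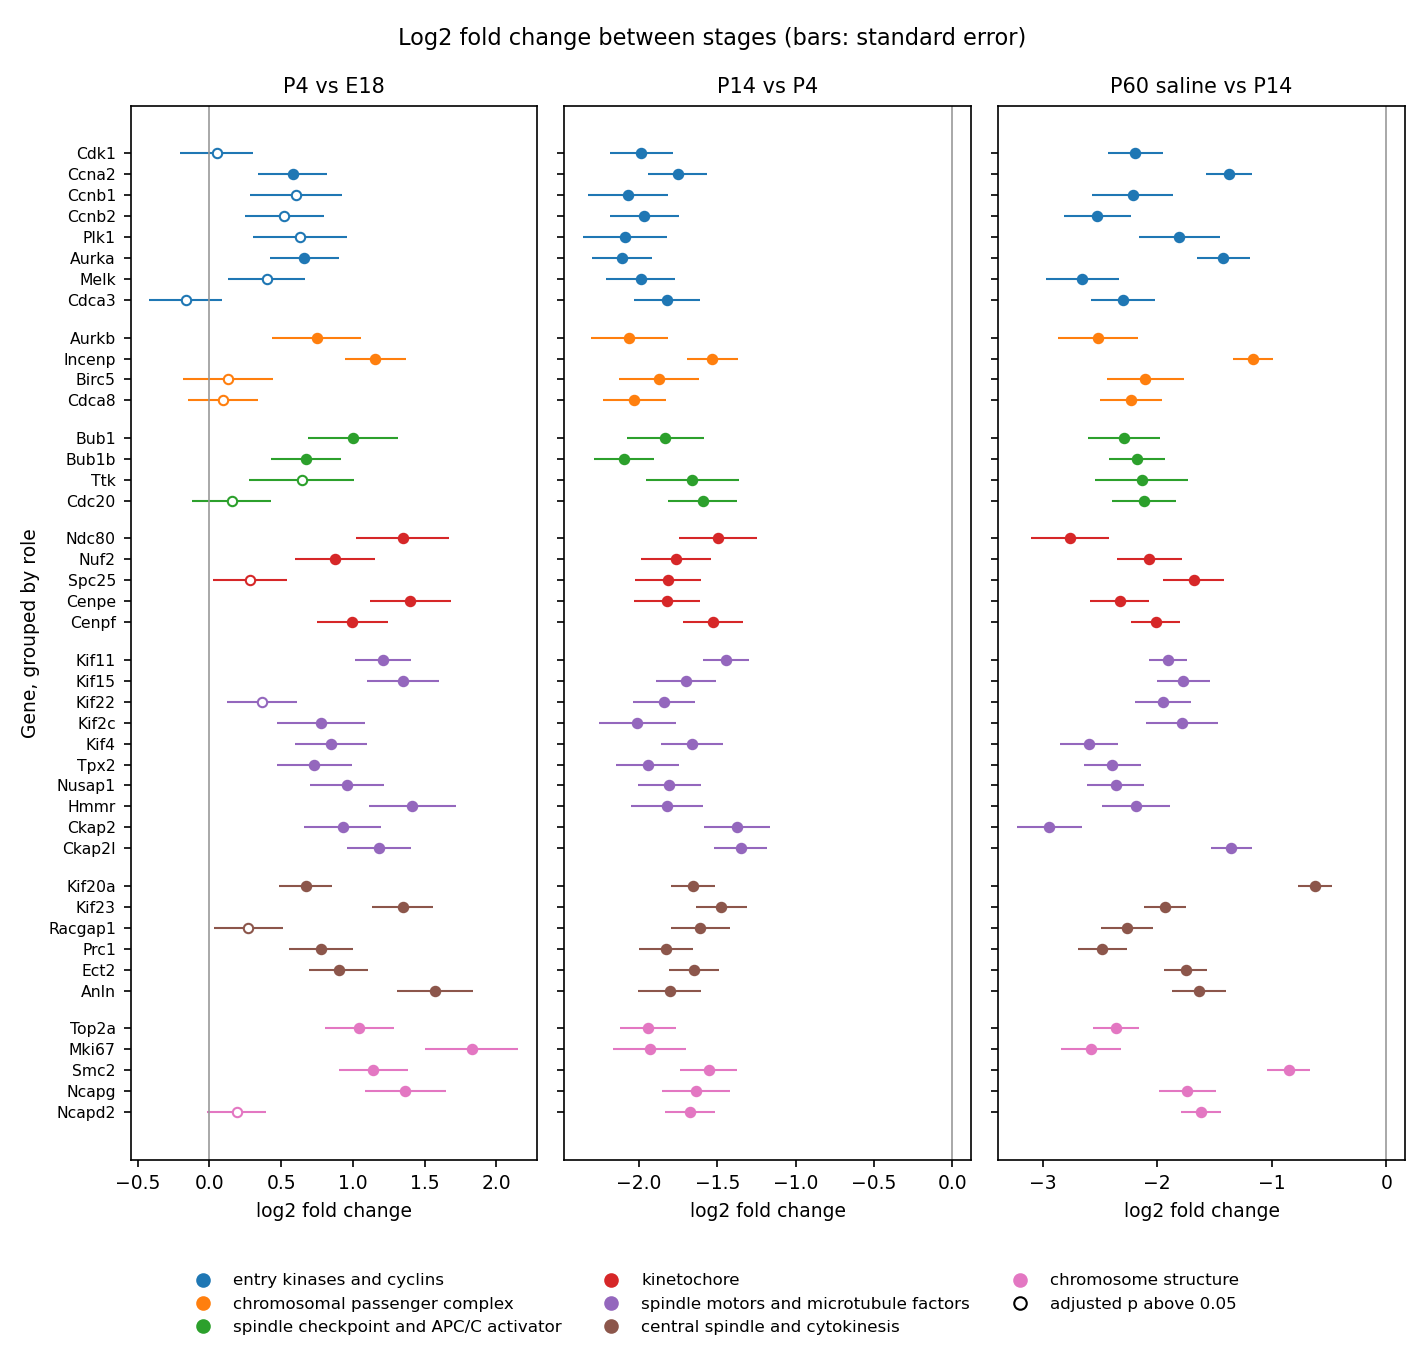
Log2 fold change of each member (horizontal axis, bars are the standard error) for P4 against E18, P14 against P4 and P60 saline against P14, with genes on the vertical axis grouped and coloured by role and open points for an adjusted p above 0.05. The points spread from -0.16 to 1.83 in the first panel and are all below 0 in the other 2.

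Of the 8 entry kinases, cyclins and partners, 2 rose from E18 to P4 (Ccna2 and Aurka), a share close to the 25.5% of all genes, and 8 fell at each later step. The call of Ccna2 (0.58, adjusted p = 0.044) was lost with each other scaling, with DESeq2 and limma-voom and in 29 of 47 fits with 1 library left out. Cdk1, the kinase that starts mitosis, was at 83.3, 119 and 315 CPM at E18 and 102, 136 and 165 CPM at P4. It was then at 9.35, 25.9 and 44.1 CPM at P14, 2.78, 5.99 and 11.4 CPM at P60 with saline, and 1.18, 5.14 and 10.4 CPM with LPS. The E18 and P4 ranges overlapped, and the E18 maximum came from the library labelled M_E18 4, with the next at 126 CPM. Its change from E18 to P4 was 0.05 ± 0.25 (adjusted p = 0.887), 0.42 without that library (adjusted p = 0.084), 0.51 with limma-voom, which called it (adjusted p = 0.00425), and below 0 with RLE scaling (-0.10). It fell by 1.98 ± 0.20 to P14 and fell by 2.19 ± 0.24 to P60.

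Ccnb1, cyclin B1 and the main partner of Cdk1, was at 14.9, 21.4 and 33.4 CPM at E18, 28.04, 31.9 and 38.4 CPM at P4 and 0.850, 5.35 and 20.5 CPM at P14. At P60 its median was 1.40 CPM with saline and 0 with LPS, with highest libraries at 4.99 and 3.33 CPM. The E18 and P4 ranges overlapped, as did those of saline and LPS. Its change from E18 to P4 was 0.60 ± 0.32 (adjusted p = 0.112), and it fell by 2.07 ± 0.26 to P14. The reference holds 4 other transcripts nearly identical to that of Ccnb1 (at least 95% over at least 300 bases), so its counts may be split.

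Ccna2, cyclin A2, which acts in S phase and at the start of mitosis, was at 48.9, 88.1 and 130 CPM at E18, 115, 129.7 and 164 CPM at P4 and 12.9, 36.3 and 55.9 CPM at P14. At P60 it was at 7.16, 10.97 and 26.2 CPM with saline and 4.39, 10.7 and 28.6 CPM with LPS. It rose by 0.58 ± 0.24 from E18 to P4 (adjusted p = 0.044), a call lost with other scalings (0.45 and adjusted p = 0.133 with RLE).

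Plk1, the kinase of centrosome maturation and mitotic exit, was at 5.11, 15.03 and 29.5 CPM at E18, 16.1, 21.5 and 33.5 CPM at P4 and 0.818, 3.74 and 8.04 CPM at P14, and its P60 medians were 0.729 CPM with saline and 0.796 CPM with LPS. Its E18 and P4 values overlapped (0.63 ± 0.33, adjusted p = 0.104), and all P14 libraries lay below those of P4. It fell by 2.09 ± 0.27 to P14 and by 1.81 ± 0.36 to P60. Aurka, the kinase that matures centrosomes and builds the spindle poles, had the largest fall from P4 to P14 of all members, at -2.11 ± 0.19 (adjusted p = 5.93e-12). Melk, a kinase of the G2 and mitotic program, was among the 3 largest falls to P60, at -2.66 ± 0.32 (adjusted p = 5.26e-09).

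The chromosomal passenger complex corrects faulty spindle attachments and later directs cytokinesis. From E18 to P4 its kinase Aurkb and its scaffold Incenp rose, while Birc5 (survivin) and Cdca8 (borealin), which target it to centromeres, did not pass the test. Aurkb was at 13.3, 24.9 and 36.4 CPM at E18, 31.9, 35.9 and 55.6 CPM at P4 and 1.98, 8.02 and 15.98 CPM at P14, with P60 medians of 1.19 CPM for saline and 0.868 CPM for LPS. Its E18 and P4 ranges overlapped, with a rise of 0.75 ± 0.31 (adjusted p = 0.0415) that was lost with RLE scaling (adjusted p = 0.104). Incenp rose by 1.16 ± 0.22 (adjusted p = 2.27e-05) with no overlap. The values of Birc5 (0.13 ± 0.31, adjusted p = 0.752) and Cdca8 (0.09 ± 0.24, adjusted p = 0.775) were among the 4 with the largest adjusted p.

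The spindle checkpoint holds the cell in metaphase until every kinetochore is attached. Bub1, its kinase at kinetochores, was at 5.84, 34.3 and 44.1 CPM at E18, 38.9, 59.1 and 72.1 CPM at P4, 4.30, 14.7 and 25.1 CPM at P14, and a median of 2.47 CPM with saline and 2.61 CPM with LPS. It rose by 1.00 ± 0.32 from E18 to P4 (adjusted p = 0.00809), and the ranges overlapped. Bub1b (BubR1), which inhibits the APC/C, rose too (0.67 ± 0.24) and fell by 2.10 ± 0.19 to P14, among the 3 largest falls. Ttk (Mps1), the kinase at the head of the checkpoint, did not pass the test from E18 to P4 (0.64 ± 0.36) and had the largest adjusted p of all members at P14 against P4 (-1.66 ± 0.30, adjusted p = 1.44e-05).

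Cdc20, which the checkpoint inhibits and which activates the APC/C for anaphase, was at 19.7, 34.3 and 67.1 CPM at E18, 35.2, 42.5 and 46.6 CPM at P4 and 3.40, 10.9 and 21.8 CPM at P14. Its medians were 2.21 CPM with saline and 1.501 CPM with LPS. The E18 range enclosed that of P4, and the change was 0.16 ± 0.28 (adjusted p = 0.664). It fell by 1.59 ± 0.22 to P14 and by 2.12 ± 0.28 to P60.

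Kinetochores couple chromosomes to microtubules. Of their 5 genes, 4 rose from E18 to P4, where 25.5% of all genes did, with Spc25 (0.28 ± 0.26) the exception. Ndc80, the microtubule-binding subunit of the complex named after it, was at 0.730, 18.3 and 22.7 CPM at E18, 27.6, 37.9 and 46.5 CPM at P4, and 4.30, 10.3 and 23.98 CPM at P14, with medians of 1.304 CPM for saline and 0.714 CPM for LPS. Each P4 library was above each E18 library (1.35 ± 0.32, adjusted p = 7.09e-04). Ndc80 fell by 1.49 ± 0.25 to P14 and by 2.76 ± 0.34 to P60, the second largest fall of that step, and 1 other transcript in the reference nearly matches part of it. Cenpe, the motor that moves chromosomes to the spindle equator, rose by 1.40 ± 0.28, and Cenpf, a large coat protein of the kinetochore, by 1.00 ± 0.25.

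Among 10 spindle motors and microtubule factors, 9 rose from E18 to P4, where 25.5% of all genes did. Kif22 did not pass the test (0.37 ± 0.24). Kif11 (Eg5), the motor that pushes spindle poles apart, was at 13.2, 75.6 and 89.4 CPM at E18, 103, 138 and 171 CPM at P4 and 27.2, 41.2 and 66.1 CPM at P14. At P60 it was at 6.23, 9.27 and 18.2 CPM with saline and 2.08, 9.87 and 23.1 CPM with LPS. No 2 neighbouring stages overlapped, and Kif11 rose by 1.21 ± 0.20 (adjusted p = 2.66e-06), then fell by 1.44 ± 0.15 to P14 and fell by 1.90 ± 0.17 to P60. Hmmr, a spindle pole protein, had the third largest rise to P4, at 1.41 ± 0.30 (adjusted p = 1.73e-04).

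Tpx2, which activates Aurora A on the spindle, was at 10.2, 72.6 and 131 CPM at E18, 97.1, 125 and 145 CPM at P4 and 12.1, 24.3 and 44.1 CPM at P14, with P60 medians of 4.81 CPM for saline and 3.76 CPM for LPS. E18 and P4 overlapped, and the rise of 0.73 ± 0.26 (adjusted p = 0.0187) was lost without the 2 E18 libraries dated 11 April (0.42, adjusted p = 0.185). Ckap2, a microtubule stabiliser, had the largest fall of all members from P14 to P60, at -2.94 ± 0.28 (adjusted p = 2.39e-11).

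The central spindle and the contractile ring divide the cell. Anln (anillin), the ring scaffold, was at 5.84, 20.9 and 36.5 CPM at E18, 43.1, 59.6 and 71.2 CPM at P4 and 7.32, 12.1 and 27.8 CPM at P14, with medians of 5.01 CPM for saline and 3.08 CPM for LPS. P4 did not overlap E18, and the rise of 1.57 ± 0.26 (adjusted p = 4.52e-06) was the second largest. Ect2, the exchange factor that activates RhoA at the cleavage furrow, was at 10.2, 48.1 and 62 CPM at E18, 59.3, 74.8 and 102 CPM at P4, 10.2, 19.5 and 33.1 CPM at P14, and medians of 5.27 CPM with saline and 4.73 CPM with LPS. It rose by 0.90 ± 0.21 and then fell by 1.65 ± 0.16 to P14 and fell by 1.75 ± 0.19 to P60.

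Kif20a (MKLP2), the motor that carries the passenger complex to the central spindle, had the smallest fall from P14 to P60, at -0.63 ± 0.15 (adjusted p = 6.26e-04), and stayed at 14.8% of its P4 median at P60. In the RefSeq annotation of GRCm38.p6 it overlaps its neighbours Brd8 and Cdc23, and the sources used here do not say how reads were assigned where genes overlap. Kif23 (MKLP1), another motor of the central spindle, rose by 1.35 ± 0.21 from E18 to P4 with no overlap. Racgap1, which binds Kif23, did not pass that test (0.27 ± 0.24), and 1 other transcript nearly matches part of it.

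Of the 5 genes of chromosome structure, 4 rose from E18 to P4, where 25.5% of all genes did. Mki67 (Ki-67), which coats mitotic chromosomes and keeps them apart, had the largest rise of all members. It was at 15.3, 235 and 399 CPM at E18, 425, 641 and 791 CPM at P4, 73.7, 135 and 215 CPM at P14, 3.74, 23.7 and 39.5 CPM at P60 with saline and 13.4, 29.3 and 74.7 CPM with LPS. No 2 neighbouring stages overlapped, while saline and LPS did. It rose by 1.83 ± 0.33 (adjusted p = 1.16e-05), and by 1.34 without the 2 E18 libraries dated 11 April (adjusted p = 1.93e-04), and fell by 1.93 ± 0.23 to P14 and fell by 2.58 ± 0.26 to P60. Its share of the summed counts of the 42 genes was 8.91% at E18, 15.9% at P4, 14.97% at P14 and 9.18% at P60 with saline (medians).

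Top2a, topoisomerase II alpha, which untangles sister chromatids, was at 28.5, 232 and 334 CPM at E18, 286, 389 and 436 CPM at P4, 40.7, 84.0 and 139.7 CPM at P14, 7.06, 14.5 and 30.7 CPM with saline and 7.67, 18.6 and 33.9 CPM with LPS. E18 and P4 overlapped, and P14 lay between P4 and P60 with no overlap. It rose by 1.05 ± 0.24 (adjusted p = 3.76e-04) and fell by 1.94 ± 0.18 to P14 and fell by 2.36 ± 0.20 to P60. Per kilobase of transcript, the scale on which genes can be compared, Top2a had the highest level of the members at P4, at 74.5 CPM per kilobase, ahead of Mki67 at 63.7 and Ccna2 at 43.7, and Ttk the lowest at 6.14.

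Condensin folds chromosomes for segregation. Smc2, a core ATPase of both condensins, was at 5.84, 65.1 and 112 CPM at E18, 92.4, 133 and 149 CPM at P4, 19.3, 33.7 and 60.5 CPM at P14, 9.59, 19.9 and 40.5 CPM with saline and 11.2, 17.7 and 30.4 CPM with LPS. Its P14 and P60 ranges overlapped. It rose by 1.14 ± 0.24 from E18 to P4 (adjusted p = 1.33e-04) and fell by 0.85 ± 0.19 from P14 to P60 (adjusted p = 2.72e-04), the second smallest fall of that step.

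Ncapd2, a condensin I subunit, was at 29.2, 167 and 289.7 CPM at E18, 119, 162 and 187 CPM at P4, 24.6, 39.6 and 74.8 CPM at P14, 4.99, 12.4 and 19.2 CPM with saline and 4.73, 11.7 and 19.5 CPM with LPS. Its E18 range enclosed that of P4 (0.19 ± 0.21, adjusted p = 0.463), and it fell with no overlap at both later steps. Another condensin I subunit, Ncapg, rose by 1.36 ± 0.28 from E18 to P4.

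The E18 libraries were uneven. Their summed level was 3000 CPM in the library dated 25 January, 2923 and 2959 CPM on 27 January, 2027 and 2299 CPM on 15 March, and 1634 and 1022 CPM on 11 April, in M_E18 3 and M_E18 4. M_E18 4 was the lowest E18 library for 33 of 42 members, although the highest for Cdk1. In these last 2 libraries Ttr, a transcript of choroid plexus, took 10.4% and 24.8% of counts, against 0.653% to 5.60% in the other E18 libraries, and microglial markers summed to 3117 and 2294 CPM, against 3511 to 5204 CPM. Without them, 18 of 42 members rose from E18 to P4 in place of 28, with a median log2 fold change of 0.57. Their part in the change from E18 to P4 beyond these values was not tested.

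**Figure D3:**
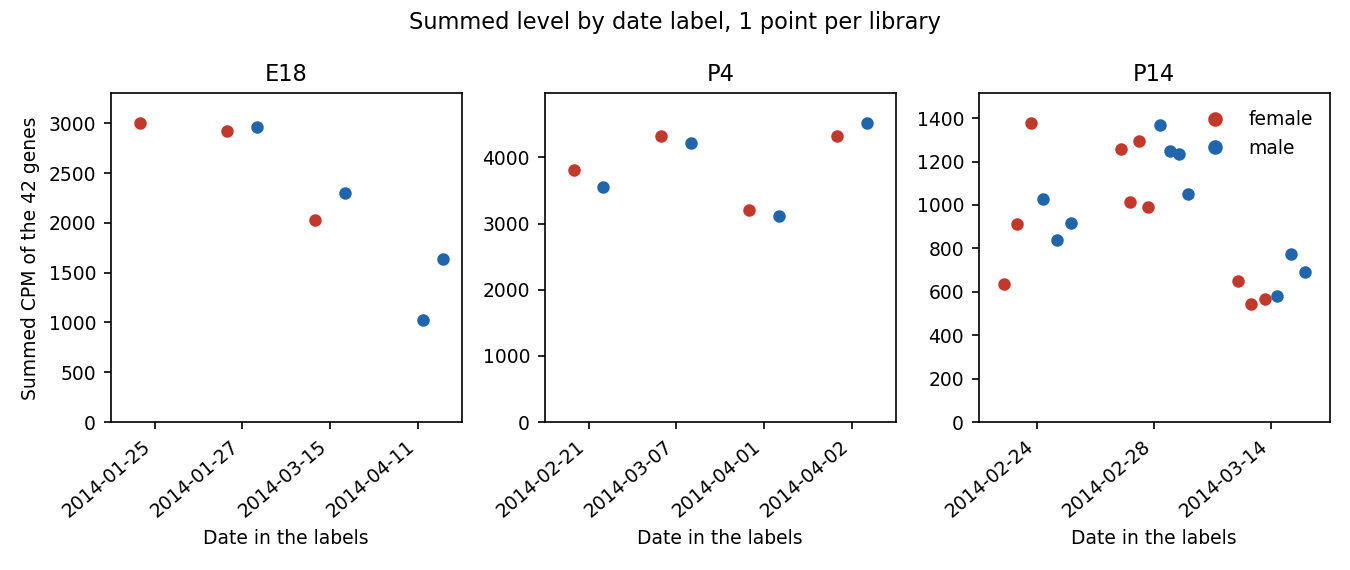
Summed CPM of the 42 genes (vertical axes start at 0 and differ between panels) by the date in the labels (horizontal axis) at E18, P4 and P14, with 1 point per library coloured by sex in the title. E18 libraries run from 3000 CPM on the first date to 1022 CPM on the last, the sexes sit side by side on each P4 date, and the P14 libraries of 14 March lie at 545 to 775 CPM.

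Transcript length moved with the change from E18 to P4. The 28 members that rose had a median length of 3544.5 bases and the 14 others of 2344 bases, and the log2 fold change correlated with log2 length at Pearson r = 0.56 and Spearman rho = 0.56 across the 42 members, which share the same libraries. Transcripts of at most 1500 bases took 45.1% of counts in M_E18 4 and 22.7% in M_E18 3, against 10.5% to 14.97% in the other E18 libraries and at most 15% at P4. Ttr alone took 24.8% of all counts in M_E18 4 and 10.4% in M_E18 3, against 0.653% to 5.60% in the other E18 libraries. The share of short transcripts apart from Ttr was not tested. The part of length in the change was not tested. Lengths are those of the GENCODE transcript with the row's accession, which need not be the one expressed.

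**Figure D4:**
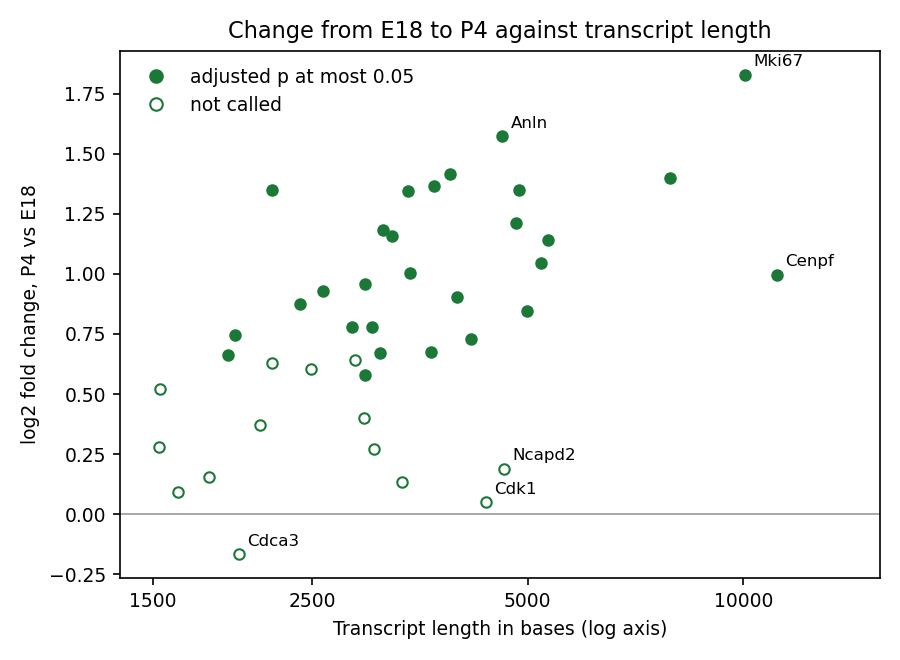
Log2 fold change from E18 to P4 (vertical axis) against transcript length in bases (horizontal log axis), with 1 point per member, filled where the adjusted p was at most 0.05. Mki67 (1.83) is at the upper right, and Cdk1 (0.05) and Ncapd2 (0.19) are long transcripts near 0.

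Within P14 and P4 the members also differed by date. At P14 the summed level was 634 to 1376 CPM on 24 February (6 libraries), 990 to 1368 CPM on 28 February (8) and 545 to 775 CPM on 14 March (6). For 41 of 42 members the median was lowest on 14 March, as for 51.5% of all genes tested, and for 40 it was highest on 28 February, as for 49.7%. On 14 March the neural progenitor markers (10 genes) summed to 359 to 411 CPM, against 434 to 947 CPM on the other dates, and the microglial markers to 28030 to 32490 CPM, against 13970 to 28060 CPM. Against P4, 42 of 42 members fell with the P14 libraries of any one date, with medians of -1.73, -1.50 and -2.36 in date order. From P14 to P60, 41, 42 and 39 fell, with medians of -2.12, -2.37 and -1.56.

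At P4, where each of 4 dates holds 1 library of each sex, both sexes were at 3107 and 3202 CPM on 1 April and at 4327 and 4514 CPM on 2 April. For 36 members the median was lowest on 1 April, as for 24.3% of all genes, and for 29 it was highest on 2 April, as for 23.8%. The members share these libraries, so they are not independent observations of a date.

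Other cells that divide or were present moved with stage as well. Of all genes tested, 25.5% rose and 22.7% fell from E18 to P4. From P4 to P14 20.6% rose and 20.8% fell, and from P14 to P60 18.5% rose and 25.7% fell. Neural progenitor markers, among them Sox2, Pax6 and Nes, summed to 842 to 2566 CPM at E18, 787 to 1493 CPM at P4, 359 to 947 CPM at P14 and 88.8 to 279 CPM at P60 with saline, and 3 fell and 1 rose from E18 to P4, 7 fell to P14 and 4 fell and 1 rose to P60. Neurog2 was at 0 in all saline libraries at P60. Markers of neutrophils and their precursors (9 genes) summed to 178 to 1485 CPM at E18, 276 to 8578 CPM at P4 and 60.7 to 573 CPM at P14. Between stages they moved in the direction of the mitosis genes: 8 rose from E18 to P4, 9 fell to P14 and 5 fell to P60. Within P4, libraries dated 7 March had 276 and 291 CPM for these markers with 4316 and 4210 CPM for the mitosis genes. Those dated 2 April had 8578 and 3762 CPM with 4327 and 4514 CPM. At E18 the highest marker sums, 1485 and 1134 CPM, were in M_E18 3 and M_E18 4, which had the lowest mitosis sums. Astrocyte markers (8 genes) summed to 240.3 to 1261 CPM at E18, 707.5 to 1464 CPM at P4, 104 to 1101 CPM at P14 and 137 to 256 CPM at P60 with saline. Of these 4 rose from E18 to P4, 6 fell and 2 rose to P14, and 6 fell and 1 rose to P60. Microglial markers rose too from E18 to P4, 10 of 10, with median sums of 3777 and 12620 CPM. Their median log2 fold change at that step was 1.97, against 0.78 for the mitosis genes. After P4 the microglial markers went the other way from the mitosis genes, 10 of 10 rising from P4 to P14. The share of the mitotic RNA that came from each cell type was not tested.

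The wider mitotic program, 65 genes found of 68 listed outside the 42, had 34 that rose, 1 that fell and 30 not called from E18 to P4, where 25.5% of all genes rose and 22.7% fell. Its smallest p-values were the condensin II subunit Ncapd3 (1.26 ± 0.17), the condensin I subunit Ncaph (0.98 ± 0.15) and separase, Espl1 (1.11 ± 0.18), while the kinetochore gene Zwint fell by 0.51 ± 0.15. From P4 to P14 58 fell and 2 rose, where 20.8% and 20.6% of all genes did. Nek2 (-1.99 ± 0.17), Tacc3 (-1.59 ± 0.14) and Cep55 (-2.20 ± 0.20), of centrosomes, spindle and abscission, had the smallest p-values, and the inhibitory kinase Wee1 (0.86 ± 0.19) and securin, Pttg1 (0.74 ± 0.22), rose. To P60 55 then fell and 1 rose, where 25.7% and 18.5% of all genes did. The smallest p-values were those of lamin B1, Lmnb1 (-1.70 ± 0.15), the centromeric histone Cenpa (-2.61 ± 0.23) and cyclin F, Ccnf (-2.83 ± 0.25). The kinetochore gene Mis12 was the 1 that rose (0.73 ± 0.15).

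Among 28 DNA replication genes, 4 rose and 2 fell from E18 to P4, against 25.5% and 22.7% of all genes, with a median of 0.14. Of the replicative helicase subunits, Mcm4 (0.72 ± 0.15) and Mcm3 (0.62 ± 0.18) rose and Mcm7 (-0.73 ± 0.24) fell, as did the clamp loader subunit Rfc3 (-0.58 ± 0.22). From P4 to P14 26 fell, where 20.8% of all genes did. The smallest p-values were those of Mcm4 (-1.68 ± 0.12), the ribonucleotide reductase subunit Rrm1 (-1.54 ± 0.12) and Mcm6 (-1.72 ± 0.13). To P60 24 then fell, where 25.7% of all genes did. Uhrf1, which maintains DNA methylation, was at -2.78 ± 0.24, the licensing factor Cdt1 at -2.16 ± 0.25 and Rrm2 at -2.34 ± 0.30. Whether these genes differed from the mitosis genes was not tested.

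The regulators of late cell cycle genes (15 genes of MuvB, B-Myb, FoxM1, E2F partners and NF-Y) included 7 that rose and 2 that fell from E18 to P4, against 25.5% and 22.7% of all genes. The pocket proteins Rbl1 (1.66 ± 0.21) and Rbl2 (1.05 ± 0.16) and the NF-Y subunit Nfya (1.18 ± 0.20) rose, and Nfyb (-0.63 ± 0.15) and the histone chaperone Rbbp4 (-0.58 ± 0.17) fell. From P4 to P14 4 fell and 2 rose, against 20.8% and 20.6% of all genes. The activators Foxm1 (-1.44 ± 0.18) and Mybl2 (B-Myb, -1.80 ± 0.27) and the E2F partner Tfdp1 (-0.98 ± 0.13) fell, and the MuvB subunits Lin54 (0.92 ± 0.15) and Lin37 (0.53 ± 0.20) rose. From P14 to P60 8 fell, with the smallest p-values for Foxm1 (-2.18 ± 0.21) and Lin54 (-1.50 ± 0.14), and Rbl2 (0.67 ± 0.11) and Lin52 (0.77 ± 0.17) rose, against 25.7% and 18.5% of all genes.

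APC/C core subunits act in resting cells too, and cohesin also shapes interphase chromatin. Of 13 APC/C genes 7 fell and 1 rose from E18 to P4, against 22.7% and 25.5% of all genes, with Anapc5 (-0.58 ± 0.11) and Anapc2 (-0.62 ± 0.13) lower and Cdc27 (0.72 ± 0.16) higher. From P4 to P14 3 fell, a share close to that of all genes, namely Cdc23 (-0.88 ± 0.12), Anapc5 (-0.47 ± 0.09) and Anapc1 (-0.45 ± 0.12). From P14 to P60 3 fell, again close to the share of all genes, namely the coactivator Fzr1 (-0.88 ± 0.20), Anapc7 (-0.45 ± 0.11) and Cdc27 (-0.42 ± 0.11), and Anapc13 (0.64 ± 0.25) and Anapc1 (0.28 ± 0.11) rose. Of 10 cohesin genes 9 rose from E18 to P4, where 25.5% of all genes did. The smallest p-values were those of the release factor Wapal (1.05 ± 0.21), Pds5a (0.95 ± 0.22) and Stag2 (0.81 ± 0.20). From P4 to P14 2 rose, among them Wapal (0.48 ± 0.17), and Rad21 (-0.40 ± 0.12) and Smc1a (-0.37 ± 0.11) fell. These shares were close to those of all genes (20.6% rose and 20.8% fell). From P14 to P60 Wapal fell (-0.54 ± 0.15), and Stag2 (0.28 ± 0.14) and Mau2 (0.21 ± 0.10) did not pass the test.

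Between the sexes 0 of 42 members were called by edgeR at any stage in the untreated and saline libraries, where 0.0722% of all genes were at E18 and 0.0433% at each of P4, P14 and P60 with saline. At an unadjusted p under 0.05 there were 2 members at E18, 0 at P4, 0 at P14 and 9 at P60. DESeq2 called 0, 0, 0 and 1 and limma-voom 3, 0, 0 and 2. For sex by age edgeR called 0, where 0.0% of genes were called, with 4 at an unadjusted p under 0.05, and limma-voom called 4. The members with a fold below 0 (lower in males) numbered 33 of 42 at E18, 26 at P4, 12 at P14 and 34 at P60 with saline, against 51.04%, 51.65%, 54.72% and 47.64% of all genes. The members share the libraries, so these counts are descriptions. At E18 the 2 libraries dated 11 April, M_E18 3 and M_E18 4, had the lowest sums (1634 and 1022 CPM). Both have male titles, no library with a female title has that date, and M_E18 4 is female in its sex label. At P60 with saline males had a summed level of 212 ± 31.6 CPM (SD, n = 5) against 276 ± 65.3 CPM in females (n = 7). By date these libraries were at 220 to 282 CPM on 27 March, 227 to 353 CPM on 31 March and 159 to 211 CPM on 3 April. The sexes were not spread equally over these dates. At P4 the sums were 3844 ± 636 CPM in males and 3912 ± 533 CPM in females (n = 4 each), within the spread.

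With LPS the median summed level was 242 CPM, against 235 CPM with saline, a ratio of 1.03, and the ranges overlapped. At P60 13 of the 42 members had enough counts to be tested (Ccna2, Incenp, Cenpf, Kif11, Kif15, Kif2c, Ckap2l, Kif20a, Kif23, Top2a, Mki67, Smc2 and Ncapd2). In the mean of the sexes 2 rose, Kif2c and Ckap2l, and none fell, where 10.5% of all genes tested rose. Kif2c passed the filter through the LPS libraries: 9 of them and 0 saline libraries reached its level of 9.26 CPM. The 13 are thus in part chosen by the change, and their count is not read against the share of all genes. Without a filter on low counts all 42 could be fitted, and the same 2 were called. With limma-voom Kif20a fell as well (-0.60, adjusted p = 0.0313). The members with the largest adjusted p were Kif11 (-0.03 ± 0.28), Ccna2 (-0.03 ± 0.26), Smc2 (-0.06 ± 0.17) and Ncapd2 (-0.13 ± 0.20). Mki67 (0.57 ± 0.26, adjusted p = 0.15) and Top2a (0.31 ± 0.23, adjusted p = 0.415) did not pass the edgeR test in the mean of the sexes. By sex, edgeR gave Mki67 0.93 ± 0.37 in males (adjusted p = 0.0759) and 0.21 ± 0.36 in females (adjusted p = 0.870). With limma-voom Mki67 was called in males (0.83, limma adjusted p = 0.02935). Comparisons with LPS use the same saline libraries as those between stages.

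Kif2c (MCAK), a kinesin that takes microtubules apart and frees wrong attachments, was at 0, 2.21 and 4.55 CPM with saline and 2.06, 12.2 and 38.5 CPM with LPS. The ranges overlapped, with the lowest LPS library below the saline median, and 11 of 13 LPS libraries were above the highest saline library. These are 0 to 11 counts a library with saline and 2 to 37 with LPS. Kif2c rose by 2.72 ± 0.42 (edgeR adjusted p = 1.62e-05), by 2.04 ± 0.60 in females (adjusted p = 0.0411) and by 3.41 ± 0.60 in males (adjusted p = 1.31e-04). Of all genes tested, 4.17% rose in females and 11.9% in males. As Kif2c passed the filter through the LPS libraries, its calls are not read against these shares. The call in females was lost in 12 of 25 fits with 1 library left out and in 5 of 14 other alternatives. These 5 were limma-voom, the sum of rows, leaving out libraries over 10% Ttr, the replicate block (1.89, adjusted p = 0.129) and leaving out the LPS libraries dated 9 April (2.04, adjusted p = 0.063). The difference between the sexes was 1.38 ± 0.86 (adjusted p = 0.355).

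Ckap2l (radmis), a spindle protein of dividing progenitors, was at 3.03, 11.1 and 22.1 CPM with saline and 9.98, 13.7 and 64.2 CPM with LPS. By title, the libraries above every saline library were male: those dated 9 April were at 64.2, 43.7 and 52.6 CPM and those dated 10 April at 32.28 and 27.04 CPM. The library at 32.28 CPM (M_P60_LPS 7) is female in its sex label. The other 2 LPS libraries with a male title and all 6 with a female title lay within the saline range. Ckap2l rose by 0.97 ± 0.27 in the mean of the sexes (edgeR adjusted p = 0.0138) and by 2.07 ± 0.40 in males (adjusted p = 3.35e-04), with -0.13 ± 0.39 in females (adjusted p = 0.932). The difference between the sexes was 2.20 ± 0.55 (adjusted p = 0.0473), where 0.883% of genes were called. This call was lost in 10 of 15 other alternatives and in 18 of 25 with 1 library left out. Among the former were the other scalings, the other filters, the replicate block (2.25, adjusted p = 0.0681) and grouping by the sex label (2.04, adjusted p = 0.269), and the adjusted p ran from 0.00991 to 0.269. Without the 4 LPS libraries dated 9 April, of which 3 are male, Ckap2l was no longer called in the mean of the sexes (0.61, adjusted p = 0.182) or between them (1.45, adjusted p = 0.194).

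Both neighbours of Ckap2l also rose with LPS in males. In the RefSeq order of GRCm38.p6 Ckap2l lies between Slc20a1, a phosphate transporter gene on the other strand, and Il1a. The latter, the gene of the cytokine interleukin 1 alpha, is on the same strand as Ckap2l. In the male LPS libraries dated 9 April Il1a was at 3825, 3582 and 3199 CPM, in the order given for Ckap2l, against at most 1910 CPM in the other LPS libraries. The genes did not move together in each library. M_P60_LPS 2 and M_P60_LPS 7 had 1903 and 1910 CPM of Il1a and 101.7 and 104.3 CPM of Slc20a1. Their Ckap2l levels were 11.82 and 32.28 CPM. In males Il1a rose by 1.63 ± 0.36 (adjusted p = 0.00154) and Slc20a1 by 1.13 ± 0.19 (adjusted p = 8.18e-05). The difference between the sexes was 1.46 ± 0.47 for Il1a (adjusted p = 0.0901) and 1.23 ± 0.27 for Slc20a1 (adjusted p = 0.0389). Whether reads counted for Ckap2l came from transcripts of a neighbour was not tested.

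**Figure D5:**
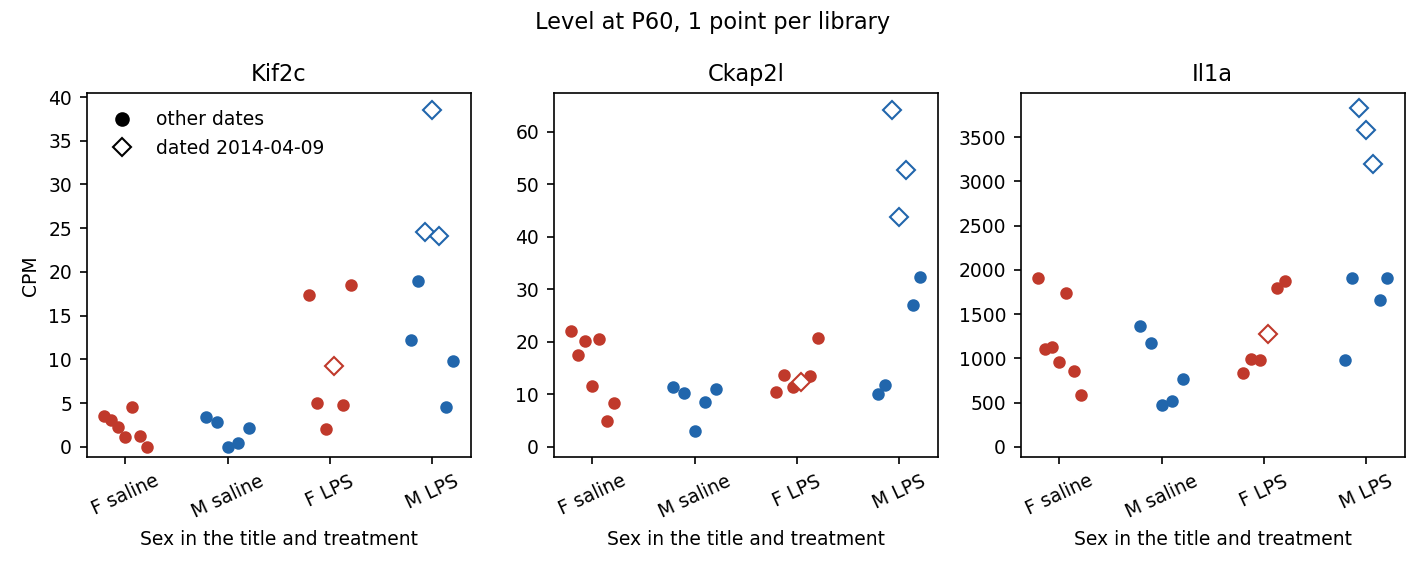
CPM (vertical axes start near 0 and differ) of Kif2c, Ckap2l and Il1a in each P60 library (1 point each) by sex in the title and treatment (horizontal axis), with open diamonds for libraries dated 9 April. The 3 male LPS libraries of that date are highest for Ckap2l (43.7 to 64.2 CPM) and Il1a (3199 to 3825 CPM), and 11 of 13 LPS libraries lie above the saline range for Kif2c.

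Of the 65 genes found of the wider mitotic program, 19 passed the filter at P60. With LPS 2 of these rose, a share close to that of all genes, of which 10.5% rose and 3.95% fell. They were Lmnb1 (1.82 ± 0.20) and Tacc3 (0.60 ± 0.20), and Mis12 fell (-0.63 ± 0.19). Among 13 replication genes tested Mcm4 rose (0.63 ± 0.17), and Rrm1 (-0.20 ± 0.14) did not pass the test. Among the regulators Nfyb rose (0.89 ± 0.14), Lin9 fell (-0.72 ± 0.23) and Lin54 (0.36 ± 0.14) did not pass the test. Smc1a was the 1 cohesin gene that rose (0.31 ± 0.09), while Smc3 (-0.29 ± 0.11) and Pds5b (-0.21 ± 0.13) did not pass the test, and of 13 APC/C genes edgeR called 0, where the smallest p-values were those of Anapc2 (-0.22 ± 0.11), Cdc26 (-0.44 ± 0.23) and Anapc1 (-0.18 ± 0.10). Of 9 markers of neutrophils and their precursors 5 were tested, and 5 rose with LPS, as did 4 of 6 of monocytes, where 10.5% of all genes rose. Their sums were 338 to 5442 CPM and 143 to 785 CPM, against 17.5 to 402 CPM and 76.7 to 440.1 CPM with saline. The filter can pass genes through the LPS libraries alone, so the genes tested here may in part be chosen by the change. The part of neutrophils and monocytes in the changes of Kif2c and Ckap2l was not tested.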

How the data were processed

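The authors deposited whole-number read counts per transcript for 60 libraries from a stranded polyA kit, per the labels' protocols. The submitters' processing notes name CASAVA 1.8.2, edgeR and mm9. The sources used here do not give the aligner, the counting program or whether it used strand. Of 28644 transcript rows, 1 per gene symbol was kept (22869 symbols), the marked row or otherwise the one with most counts, and CPM was taken over these rows. Of the 42 members, 8 had more than 1 row.

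The 47 untreated and saline libraries (8 groups of sex and stage) and the 25 P60 libraries (4 groups) were each fitted in edgeR 4.0.16 (default filter, TMM, robust quasi-likelihood F test, two-sided, Benjamini-Hochberg over 13853 and 10538 genes, threshold 0.05), tested on simulated data first. Stage and LPS comparisons average the sexes. The members and lists were chosen with earlier results of these data known. Named by rule were 16 listed members, the largest 3 rises and falls and up to 4 of largest adjusted p per comparison, and per list the 3 of smallest p and 2 against the majority. Other members, Slc20a1 and Il1a were named after their values were seen. One list gene picked by this rule is not reported here.

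Alternatives were DESeq2 1.42.0, limma-voom (limma 3.58.1), other scalings and filters, another choice of transcript row, the other sex label, blocks and libraries left out. Those by date for E18, P14 and LPS were added after seeing the data. At P4 the male and female library with the same number had the same date for 4 of 4 numbers and correlated by 0.35 to 0.42 (deviations from group means), so the numbers pair there. The main fits did not use this pairing. At P14 the dates were equal for 10 of 10 numbers, with correlations of -0.17 to 0.43. Elsewhere not every pair was over 0.1. No library was a copy of another (chi-square per degree of freedom of at least 2.04). Lengths are from GENCODE, and near copies of members were found with BLAST 2.17.0.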

Additional observations from a re-analysis of the deposited data

Results flagged for a closer look

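In 171 sets of values (the summed level, the 16 listed members, Kif2c and Ckap2l in each group of 4 to 10 libraries), 11 had a library far from the others of its group, where chance gives about 1 in 20. The library M_P60_LPS 3 stood out with a summed level of 407.4 CPM (others 225.8 to 260.0), with Mki67 at 74.71 CPM (20.83 to 39.01) and with Smc2 at 30.35 CPM (14.56 to 21.28). M_E18 4 stood out for Cdk1, at 314.8 CPM (87.91 to 126.4). Kif11 was at 23.08 CPM in F_P60_LPS 5 (4.969 to 11.31) and at 13.84 CPM in M_P60_Sal 1 (7.716 to 9.291). Smc2 was at 40.49 CPM in F_P60_Sal 4 (17.35 to 23.91), Ckap2l at 20.7 CPM in F_P60_LPS 6 (10.42 to 13.66) and Kif2c at 19.49 CPM in M_P14 5 (2.128 to 10.23). Low values were those of Cdc20 in M_P14 8, at 3.4 CPM (10.23 to 17.44), and of Aurkb in M_P60_Sal 3, listed at 0.0 CPM (0.9077 to 1.263).

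The effect of LPS on Ckap2l differed between the sexes by 2.201 on the log2 scale, by a test of the difference itself (edgeR adjusted p = 0.0473), and this call was lost in several of the alternatives.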

How the results depend on the processing

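The falls from P4 to P14, from P14 to P60 and from E18 to P60 were called for at least 39 of 42 members under each alternative run. The members that rose from E18 to P4 numbered 18 without the 2 E18 libraries of 11 April and 20 to 28 with 1 library left out, with 20 without F_E18 3 and 23 without M_E18 4. With the P14 libraries of 14 March only, the median log2 fold change was -2.359 from P4 to P14 and -1.556 from P14 to P60, and with scaling by library total it was -3.559 from E18 to P60. The cause of these shifts was not tested. Scaling moved the median of all genes by over 0.1: from 0.03 to -0.10 (RLE) at P4 against E18, from -0.01 to -0.30 (library total) at P14 against P4 and from -0.08 to -0.44 (library total) at P60 against E18.

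With LPS, 1 member was called without the 4 LPS libraries of 9 April. In females 0.0 members rose with limma-voom (Kif20a fell by 1.11, limma adjusted p = 0.0131), the sum of rows, without libraries over 10% Ttr, with the replicate block and without those 4 libraries, and 0.0 to 1.0 with 1 library left out. For sex by LPS 0.0 were called with RLE, upper quartile or library total scaling, no filter, at least 5 CPM, the sum of rows, the other sex label, without libraries of disagreeing labels, with the replicate block and without those 4 libraries, and 0.0 to 1.0 with 1 library left out. Under the replicate block Ckap2l differed between the sexes by 2.25 (edgeR adjusted p = 0.0681), and the count of members called in males was 3. Counts of other comparisons stayed within 1.5 times under the block. The block joins libraries by replicate number across all groups. Saline and LPS libraries of the same number and sex shared 0 dates and correlated by -0.18 to 0.16, so the block cannot test a pairing between them.

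For sex, limma-voom called 3.0 members at E18, 2.0 at P60 and 4.0 by age, and DESeq2 called 1.0 at P60. With 1 library left out edgeR called 0.0 to 2.0 at E18 (2.0 without M_E18 2) and 0.0 to 1.0 at P60 (1.0 without F_P60_Sal 7). At P60 the 42 genes took 155 to 903 counts a library, so 29 of them could not be tested for LPS with the default filter.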
